A study of Mus musculus with 6 samples.

Results

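The transcriptional response of mouse embryonic stem (mES) cells to SB431542 was described from 2 one-colour Agilent arrays, 1 of untreated and 1 of treated cells, out of 6 arrays in the series. SB431542 is a small-molecule inhibitor of the ALK-type receptor kinases through which TGF-beta, Nodal and Activin signal, and it spares the BMP receptors. The treated cells received 20 µM of it on each of 4 days. Both mES samples were of strain 129, carried the stage label E3.5 and were grown in Knockout DMEM with KSR, a serum replacement; the labels name neither feeder cells nor LIF. Epiblast stem cells (EpiSCs) of strain 129, from stages E3.5 and E5.5, in the same medium and with the same treatment, gave 2 further pairs of arrays, which serve here for comparison. The pair was picked by its titles, and genes were described where their probe was well above background on the brighter of the mES arrays. That held for 15735 of 17015 named genes, 15367 of them on both arrays and 368 on 1. No group has a second array, so no difference within the mES pair has a replicate check or a p-value, and the number of arrays limits every estimate. Nothing in the labels says that the arrays came from separate cultures.

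Nodal and Activin bind type I and type II receptor kinases, which phosphorylate Smad2 and Smad3. These enter the nucleus with Smad4 and switch on target genes, among them the pathway's own inhibitors, so the level of those inhibitors follows the strength of the signal. EpiSCs need the signal to stay pluripotent, whereas mES cells hold their pluripotency network through LIF, Wnt and BMP inputs and are known to tolerate its loss.

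Both mES arrays and both E5.5 EpiSC arrays lay on slide 1, and the E3.5 EpiSC arrays lay on slides 2 and 3. Between 82.6% and 85.7% of gene spots were well above background, and the untreated mES array had the highest share. No gene spot was saturated. Of 10 markers of mES cell identity, 10 were well above background on both mES arrays, and their ratios ran from -0.66 for Nanog to 0.72 for Dppa3. Values are log2 signals relative to the array's 75th percentile, and a ratio is the treated minus the untreated value on that log2 scale. The error given after a ratio is the scanner program's own estimate for the 2 spots, a technical error and not the spread between cultures; its median was 0.20. Repeat spots of the same probe gave ratios with a median SD of 0.06 over 212 probes.

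Most genes differed little between treated and untreated mES cells, and a small set stood far off. The middle 90% of ratios lay between -0.49 and 0.45, the median was 0.01, and 93.1% of genes lay within 1.5-fold. By the 2-fold rule used throughout, 227 genes were higher in the treated cells (1.44% of those described) and 182 were lower (1.16%), 409 in all (2.6%). Past 4-fold, 46 were higher and 37 were lower. For 29 of the higher and 61 of the lower genes the dimmer signal was not well above background, so that their size is uncertain and at best a bound. The split between directions depended on the scaling. With no scaling 178 were higher and 243 lower. When the arrays were set level on 9 spike-in control transcripts 85 were higher and 1425 lower, because the spike-ins stood 0.66 higher on the treated array and this moved the median of all genes to -0.64. Directions below are therefore relative to the typical gene of the array.

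**Figure D1:**
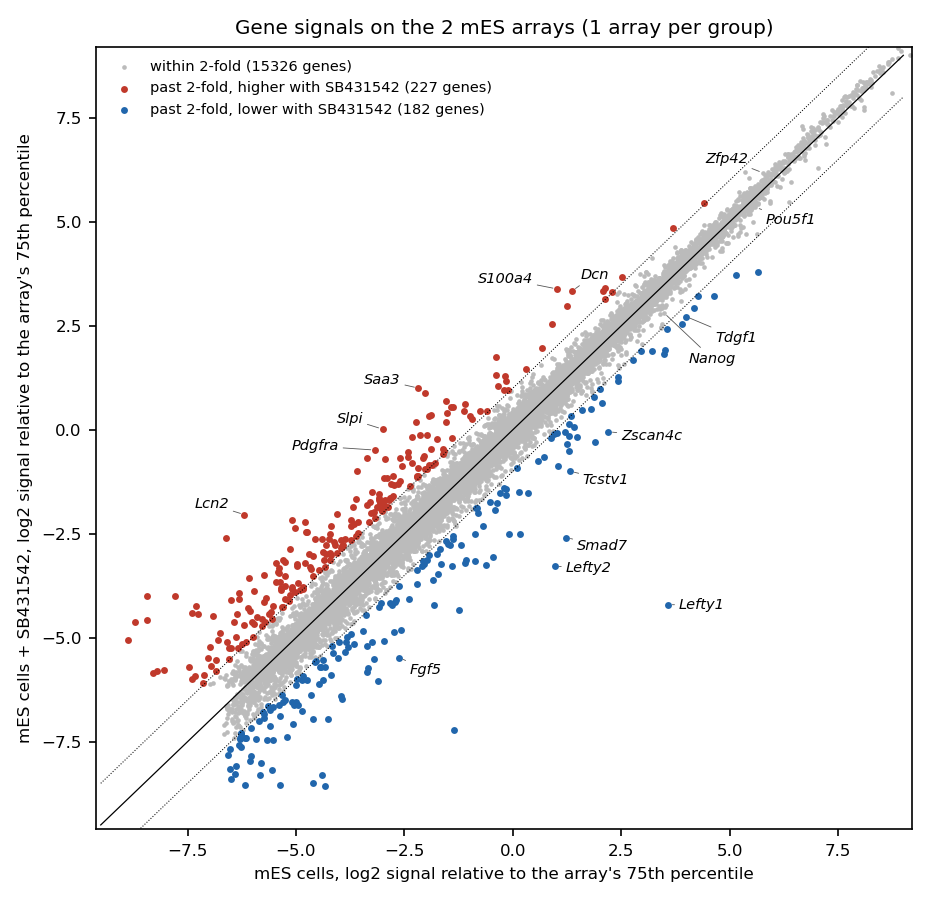
Each point is a described gene, with its log2 signal in untreated mES cells on the horizontal axis and in mES cells with SB431542 on the vertical axis, both relative to the array's 75th percentile (1 array each). The solid line marks equal signal and the dotted lines 2-fold; Lefty1, Lefty2 and Smad7 lie far below the lines, while Pou5f1, Nanog and Zfp42 lie between them.

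The feedback inhibitors of Nodal were the furthest from the diagonal. Lefty1, a secreted antagonist of Nodal, stood at 3.58 in untreated and at -4.21 in treated mES cells, a ratio of -7.79 ± 0.22, or 221-fold lower. Its signal went from 5.31 to -5.30 in the E3.5 EpiSCs and from 6.17 to -3.94 in the E5.5 EpiSCs. All 3 treated arrays were thus far below all 3 untreated arrays for this gene. Lefty2, its near relative and also a Nodal antagonist, stood at 0.97 without and -3.28 with the inhibitor (-4.25 ± 0.21, 19.03-fold lower), and its EpiSC ratios were -5.94 and -6.24.

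Smad7, the inhibitory Smad that blocks activated type I receptors, stood at 1.23 in untreated and -2.59 in treated mES cells. The ratio of -3.83 ± 0.21 (14.2-fold lower) compares with -1.76 in the E3.5 and -2.17 in the E5.5 EpiSC pair. Of the 7 members of the Nodal and Activin feedback list past 2-fold, Smad7 was the one whose mES ratio lay below both EpiSC ratios, but the difference did not pass the test described at the end (limma, -1.86 ± 0.77, adjusted p = 0.765).

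Other members past 2-fold had smaller ratios in mES cells. Tdgf1, which encodes the Nodal coreceptor Cripto, stood at 3.99 without and 2.72 with the inhibitor (-1.27 ± 0.20), against -7.00 and -6.63 in the EpiSC pairs. The Tdgf1 signal thus remained above the array's 75th percentile in treated mES cells and lay far below it in treated EpiSCs, at -4.33 and -3.19. Skil, a corepressor that binds Smads, stood at -1.25 in mES cells, -1.86 in the E3.5 line and -1.16 in the E5.5 line; its other probe gave -1.24, -2.85 and -1.35. Cer1, a secreted antagonist of Nodal, BMP and Wnt, was near background already in untreated mES cells (-5.54) and below it in treated ones, at least 1.64-fold lower, so that the bound itself lies within 2-fold. Such a bound sets the bright signal against the higher of the dim signal and the lowest signal that counted as well above background on that array. Where the dim signal was the higher, the bound equals the plain ratio and is not a true lower bound.

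In all, 23 of 24 listed feedback and target genes were described; Nodal itself was not analysed here. Of the 23, 0 were past 2-fold higher and 7 lower, 18 had a ratio below 0, and the median was -0.46 beside 0.01 for all genes. The other 16 lay between -0.75 and 0.96. They include streak and endoderm regulators that Nodal drives in the embryo, which were low in untreated mES cells: Eomes went from -3.47 to -4.22, Gsc from -3.24 to -3.76 and Mixl1 from -5.67 to -6.14. In the EpiSC pairs the ratios were -4.92 and -4.92 for Eomes, and -6.51 (to background) and -7.62 for Gsc. Pmepa1, an inhibitor of Smad activation, stood at -0.46 by the probe used and -1.09 by another. Foxa2, an endoderm factor, was at the upper end of the list with 0.96.

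The signalling parts of the pathway differed less than its feedback inhibitors. Of 18 ligand genes described, Tgfb2 was the only one past 2-fold, at -5.34 without and -3.84 with the inhibitor (1.498 ± 0.24). Its ratio was within 2-fold with normexp background correction (0.81) or the spike-in scaling (0.84). The other ligand genes lay between -0.75 for Gdf1, a Nodal partner, and 0.84 for Bmp4. Gdf3, a Nodal-like ligand of pluripotent cells, stood at 2.77 and 2.65 in mES cells, while its EpiSC ratios were -7.94 and -4.37. Of 15 receptor genes, 0 were past 2-fold higher and 2 lower, Tdgf1 and Bmpr1b, a type I BMP receptor gene. Bmpr1b was near background, at -6.30 on the untreated array and not well above background on the treated one, so no fold is given. The type I receptor genes that SB431542 acts on had ratios of 0.04 for Tgfbr1, 0.38 for Acvr1b and -0.15 for Acvr1c, and the type II receptor gene Tgfbr2 was just short of the rule at 0.99. Of 14 Smad and cofactor genes, 0 were higher and 2 lower, Smad7 and Skil. Smad2, Smad3 and Smad4 stood at -0.02, -0.37 and -0.03, and the Smad partner Foxh1 at 0.13.

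**Figure D2:**
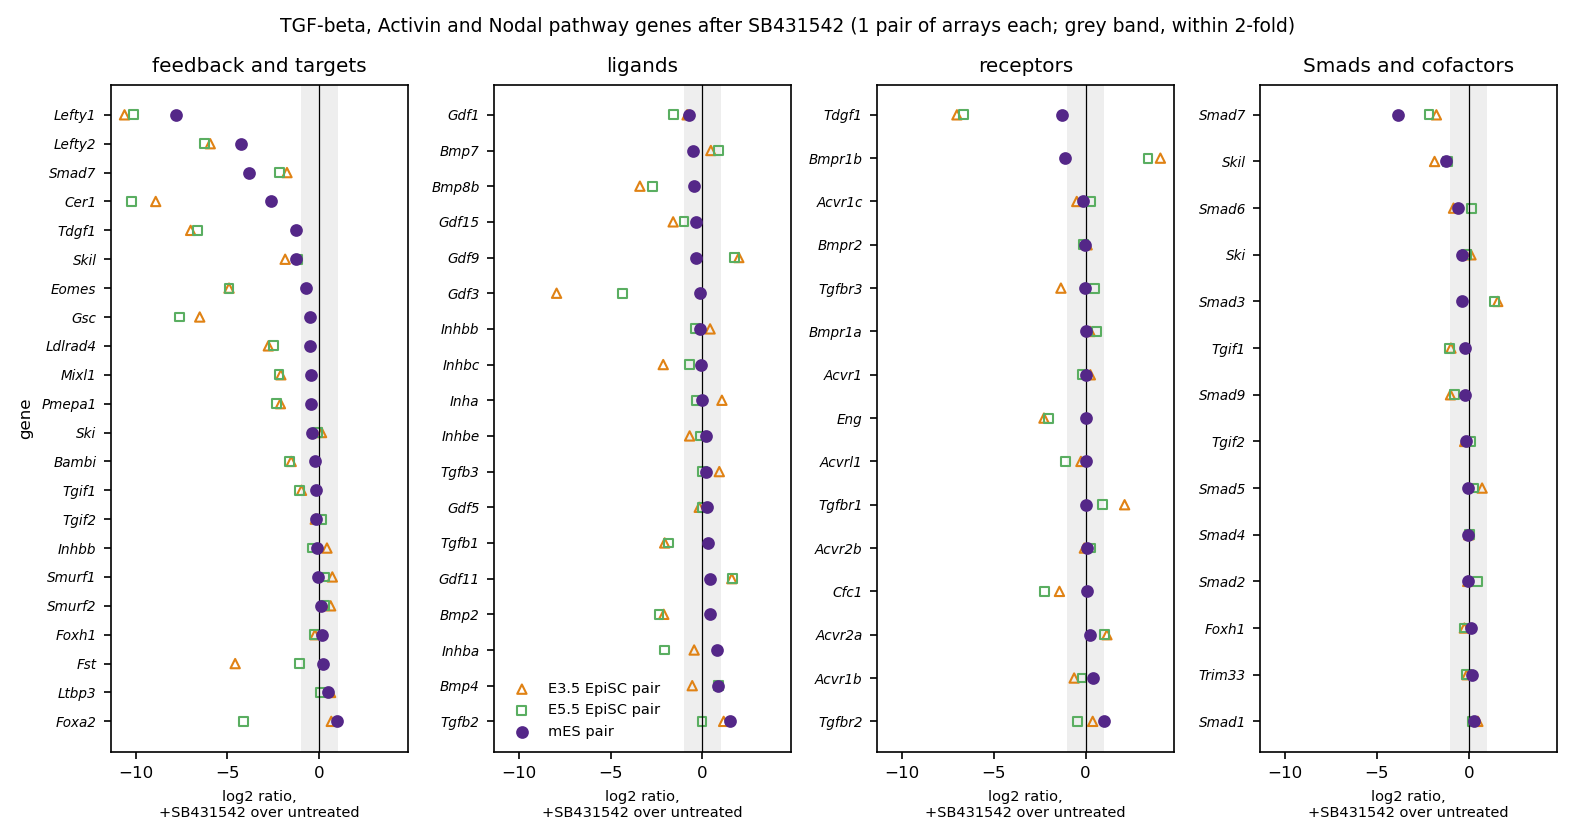
Log2 ratio of the treated over the untreated array (horizontal axis) for the members of the 4 pathway lists that are reported here, with the mES pair as filled circles and the E3.5 and E5.5 EpiSC pairs as open triangles and squares (1 pair of arrays each). Outside the feedback panel, nearly all circles sit in the grey 2-fold band, and Lefty1, Lefty2 and Smad7 lie far to its left.

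Lefty1 and Lefty2 lie near each other on mouse chromosome 1, and the genes around them were examined after their values had been seen. Tmem63a, an ion channel gene that follows Lefty1 in RefSeq order, was past 2-fold lower too. It went from -0.09 to -2.50 (-2.41 ± 0.21), against -3.24 and -2.58 in EpiSCs. Its mES ratio was thus close to that of the E5.5 line, while the EpiSC ratios of the Lefty genes were larger in size than their mES ratios.

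Genes further out on either side were within 2-fold in mES cells. Sde2, on the Lefty2 side, stood at 0.32 and H3f3a at -0.04, while Ephx1 and Nvl, on the Tmem63a side, stood at -0.28 and 0.22. Mixl1, itself a Nodal target a little further out, stood at -0.47. Elsewhere, neighbouring named genes past 2-fold lower came in 3 runs of 2, Kirrel2 with Nphs1, Cpeb1 with Ap3b2, and Sorbs2 with Pdlim3. Whether a transcript of 1 gene reaches the probe of its neighbour was not tested.

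**Figure D3:**
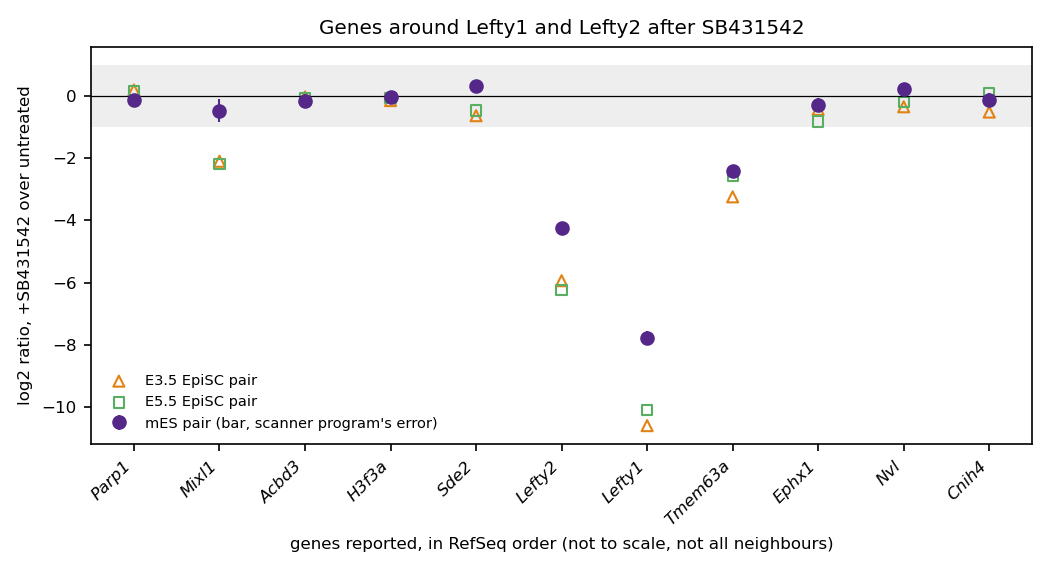
Log2 ratio of the treated over the untreated array for genes with signal around Lefty1 and Lefty2 that are reported here, in RefSeq gene order and not to scale. Filled circles are the mES pair with the scanner program's error (smaller than the symbol for most genes), open symbols the EpiSC pairs; Lefty2, Lefty1 and Tmem63a lie below the grey 2-fold band in every pair.

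Promoter sequences are shown for the members of the feedback list past 2-fold lower that the RefSeq promoter table (assembly GRCm38.p6) holds, because Smad complexes and their partner Foxh1 bind short motifs near such genes. These are Tdgf1 (chr9:110946159-110946408, minus strand) and Cer1 (chr4:82885152-82885401, minus strand), each as the 250 bases before the start, written 5′ to 3′ on the gene's strand. Capitals mark matches on either strand to CAGAC, a Smad motif, or TGTNNATT, the core of Foxh1 sites.
Tdgf1: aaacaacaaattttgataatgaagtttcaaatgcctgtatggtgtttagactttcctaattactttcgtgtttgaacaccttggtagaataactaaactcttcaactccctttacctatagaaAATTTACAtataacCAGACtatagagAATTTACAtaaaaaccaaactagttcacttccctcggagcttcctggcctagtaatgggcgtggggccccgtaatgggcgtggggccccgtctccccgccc
Cer1: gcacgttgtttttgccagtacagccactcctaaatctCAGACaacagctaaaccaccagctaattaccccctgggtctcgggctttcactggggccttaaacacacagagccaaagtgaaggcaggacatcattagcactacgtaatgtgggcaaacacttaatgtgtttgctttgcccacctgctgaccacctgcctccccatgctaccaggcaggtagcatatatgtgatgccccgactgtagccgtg
The Tdgf1 stretch held 2 matches to TGTNNATT and 1 to CAGAC, and the Cer1 stretch held 1 to CAGAC. Over all 32851 promoter entries of this length, 42.2% held CAGAC and 10.9% held TGTNNATT. These matches describe the letters only and do not show binding.

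The pluripotency network of the mES cells stayed within 2-fold, apart from Tdgf1. Pou5f1, the gene for Oct4, stood at 5.59 without and 5.35 with the inhibitor (-0.24 ± 0.20). In the EpiSCs the same gene went from 5.73 to -5.39 and from 5.88 to -4.38. Nanog, a core pluripotency factor and a direct Smad2 and Smad3 target, had the lowest ratio of the mES identity markers, from 3.48 to 2.82 (-0.66 ± 0.20). Sox2, the partner of Oct4, stood at 0.11. Of 27 naive pluripotency genes, 0 were past 2-fold in either direction and the median was 0.12. Zfp42 (Rex1) stood at 0.40, Klf4 at 0.42, Tbx3 at 0.39, Esrrb at 0.28 and Tfcp2l1 at 0.18. Of 18 core pluripotency genes, 0 were higher and 1, Tdgf1, was lower, with a median of -0.14. Under the spike-in scaling Nanog was past 2-fold lower at -1.32, and Pou5f1 stood at -0.90. The naive median was then -0.54, and the medians of all 32 lists were below 0.

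Genes of the primed epiblast and the primitive streak were lower in part. Of 24 primed epiblast genes, 0 were past 2-fold higher and 7 lower, 20 had a ratio below 0, and the median was -0.42. Fgf5, the growth factor that marks the epiblast after implantation, went from -2.62 to -5.48 (-2.86 ± 0.29, 7.25-fold lower), and in EpiSCs its ratios were -9.36 and -10.36. Wnt3, the ligand that starts the primitive streak, stood at -2.11 in mES cells and at -0.72 and -0.31 in the EpiSC pairs. Its other probe gave -2.29. Wnt8a, a Wnt ligand of the early streak, stood at -2.10, Fgf8 at -1.31 and T, the Brachyury gene, at -1.67, each with a larger negative ratio in both EpiSC pairs. Otx2 (-0.35) and Pou3f1 (-0.93), transcription factors of the primed state, were within 2-fold, and so was the DNA methyltransferase gene Dnmt3b at 0.07.

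Of 29 mesendoderm and streak genes, 1 was past 2-fold higher, Hand1 (1.66, or 0.78 with normexp), and 5 lower: Lefty2, Wnt3, T, Fgf8 and Sp5. The median was 0.02. Of 18 Wnt target genes, 1 was higher and 3 were lower, with a median of -0.43. The lower ones were T, Lef1, the Wnt effector that pairs with beta-catenin (0.72 to -0.64, ratio -1.36), and Sp5, a Wnt-induced transcription factor (-1.49 to -2.76, ratio -1.26). The higher one was the adhesion receptor gene Cd44 at 1.07, but its other probes reached down to 0.02.

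Genes of the two-cell-like state, in which a minority of mES cells transiently express transcripts of the cleavage embryo, were lower as a group. Of 18 listed genes 11 were described; 0 were past 2-fold higher, 7 were lower, and the median was -1.40. Zscan4c, the best known of them, stood at 2.20 without and -0.05 with the inhibitor (-2.25 ± 0.20), and its other probe gave -2.73. Tcstv1 stood at -2.32 (from -2.52 to -2.32 over 3 probes), Tcstv3 at -1.87, Usp17la, a deubiquitinase gene, at -1.66, Arg2 at -1.46, Usp17lc at -1.40 and Zfp352 at -1.18. Both EpiSC lines had lower Zscan4c signals to begin with (-3.10 and -3.86) and ratios of -1.08 and -0.67. Duxbl1, a double homeobox gene, was 8.46-fold lower in mES cells (-1.25 to -4.33). Pramel39 and Pramel37, of the PRAME-like family, stood at -2.60 and -2.26, while their relative Pramel7 stood at 2.66. These families hold near-identical copies that a probe may not tell apart, and in bulk samples fewer cells in such a state and less RNA per cell cannot be told apart.

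Genes induced by low oxygen and genes of glycolysis leaned downward. HIF transcription factors, which prolyl hydroxylases of the Egln family hold in check, drive many of them. Of 36 such genes, 0 were past 2-fold higher and 7 lower, 32 had a ratio below 0 against 47.1% of all genes, and the median was -0.60. Egln3, one of those hydroxylases and itself a HIF target, stood at 1.30 without and -0.52 with the inhibitor (-1.81 ± 0.20). The lactate transporter gene Slc16a3 went from 3.89 to 2.55 (-1.34), the peptide hormone gene Adm stood at -1.33, Pfkfb3, a regulator of glycolytic flux, at -1.27, the mitophagy gene Bnip3 at -1.25, Ankrd37 at -1.12 and Ndrg1 at -1.04. The mean over its 3 probes put Pfkfb3 within 2-fold. All 7 were also negative in both EpiSC pairs, where the medians of the list were -1.34 and -1.13.

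The enzymes of glycolysis themselves had smaller ratios. Slc2a1, the main glucose transporter gene, stood at -0.92, Pgk1 at -0.75, Ldha at -0.40, Aldoa at -0.34 and Gapdh at -0.04, and Hk1 was positive at 0.37. Of 20 cholesterol synthesis genes, 0 were past 2-fold in either direction, yet all 20 had a ratio below 0, from -0.70 for Lss to -0.19, with a median of -0.34. Ratios below -0.19 were seen in 18.1% of all genes. Their sizes are close to the technical error of a single ratio.

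The promoters of Bnip3 (chr7:138909507-138909756, minus strand) and Slc16a3 (chr11:120948817-120949066, plus strand; RefSeq, GRCm38.p6) are shown because HIF binds the core ACGTG, and both genes were past 2-fold lower and held it in this window; they are examples. Capitals mark ACGTG on either strand. In Bnip3 the matches on the 2 strands overlap in a palindrome.
Bnip3: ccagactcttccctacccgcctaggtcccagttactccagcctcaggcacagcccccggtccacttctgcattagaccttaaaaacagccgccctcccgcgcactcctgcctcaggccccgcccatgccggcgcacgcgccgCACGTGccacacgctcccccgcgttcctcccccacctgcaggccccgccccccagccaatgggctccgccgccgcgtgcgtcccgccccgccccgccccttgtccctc
Slc16a3: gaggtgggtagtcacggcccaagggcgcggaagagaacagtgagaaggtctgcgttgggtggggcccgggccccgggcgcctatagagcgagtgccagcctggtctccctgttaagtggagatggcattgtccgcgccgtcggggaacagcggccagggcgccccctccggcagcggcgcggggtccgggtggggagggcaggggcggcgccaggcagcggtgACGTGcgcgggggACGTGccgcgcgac
Of the 7 genes past 2-fold lower, 6 had a promoter entry, and 5 of the 6 held ACGTG in the 250 bases before a start. Counted by entry, 6 of their 7 entries held it, beside 16.6% of all 32851 entries. The list was picked for genes of low oxygen and glycolysis, and its members within 2-fold were not counted. The share is therefore no measure of the response to SB431542, and HIF binding was not tested.

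Among genes well above background on both mES arrays, the 5 largest ratios upward were those of Lcn2, Saa3, Slpi, Hp and Rarres2. Lcn2, lipocalin 2, an iron-siderophore binding protein of the acute phase, stood at -6.19 without and -2.04 with the inhibitor (4.15 ± 0.34, 17.7-fold higher), and was not well above background on any of the 4 EpiSC arrays. Saa3, a serum amyloid A gene, went from -2.18 to 1.0003 (3.18 ± 0.20), and in EpiSCs its ratios were 2.34 and 0.77. Slpi, a secreted protease inhibitor, stood at 3.02, Hp, haptoglobin, at 2.93 and Rarres2, the chemoattractant chemerin, at 2.91. For Slpi, Hp and Rarres2 the EpiSC ratios lay between -1.75 and 0.50.

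Other genes among the 15 highest had various roles. Cyp2f2, a cytochrome P450 gene, stood at 2.68, the prostaglandin transporter gene Slco2a1 at 2.57 and Hs3st1, a heparan sulfate sulfotransferase gene, at 2.50. Sned1, an extracellular matrix gene, stood at 2.41 by the probe used and as low as 0.63 by another. Grpr, the receptor for gastrin-releasing peptide (2.40), and the olfactory receptor gene Olfr1370 (2.40) were near background in untreated cells, at -6.32 and -6.49. From a signal not well above background, the defensin gene Defb20 was 16.1-fold higher by the plain ratio, which is not a lower bound. The bounds were 6.46-fold for the sperm calcium channel gene Catsper4, 6.43-fold for Car10, 5.45-fold for Reg4 and 4.88-fold for Wfdc17. With normexp background correction the log2 ratios were 1.89, 1.04, 1.16, 1.04 and 0.90, in that order. These sizes thus hold for the main processing only.

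Genes of primitive and visceral endoderm, the extraembryonic lineage that mES cultures can give rise to, were higher in part. Of 26 described, 10 were past 2-fold higher, 0 lower, and the median was 0.63 by the 75th percentile but -0.03 by the spike-in scaling. Pdgfra, the receptor that marks primitive endoderm precursors, went from -3.18 to -0.49 (2.69 ± 0.21), although its other probe gave 0.52. Thbd, thrombomodulin, stood at 2.61 and the endoderm factor gene Sox7 at 1.95. The basement membrane genes Lama1 (2.24), Col4a2 (2.02) and Col4a1 (1.72) were higher, as were Dab2, an endocytic adaptor (1.91, but 0.50 by its other probe), and the genes of the cubilin and amnionless receptor pair, Cubn (1.57) and Amn (1.01). Sparc, a matrix glycoprotein gene, stood at the edge of the rule at 1.0008. Lama1 was also higher in both EpiSC pairs, at 3.59 and 3.35.

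The master regulators of that lineage gave different answers by probe. By their brightest probe Gata4 stood at 0.28, Gata6 at 0.14 and Sox17 at 0.46, all within 2-fold. Another probe of Gata4 gave 3.32, from a signal not well above background, the other probes of Gata6 gave 1.66 and 2.60, and those of Sox17 gave -0.18 and 2.97. Probes of 1 gene also disagreed in EpiSCs: the Sox17 probe at 2.97 stood at -5.15 and -9.07 there and the brightest one at -0.55 and -0.48. Taking the mean over probes raised the median of the endoderm list to 0.99. Over all genes, 76 within 2-fold had another probe past it, 4 of them in this list. The summed linear signal of 27 endoderm markers, relative to the 75th percentile, was 57.6 in untreated and 92.8 in treated mES cells and between 31.0 and 62.9 on the EpiSC arrays; Ttr was at background on both mES arrays. Most of both mES sums was Apoe, the apolipoprotein E gene, whose own ratio of 0.60 was within 2-fold, and without it they were 13.96 and 26.78.

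**Figure D4:**
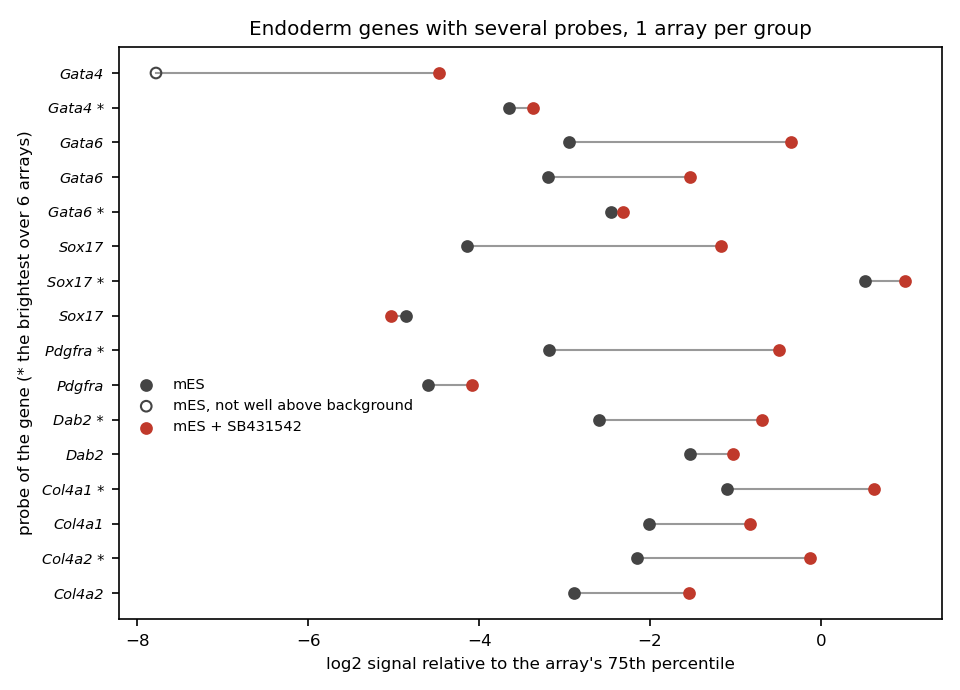
Log2 signal of each probe of 7 endoderm genes on the untreated (dark) and treated (red) mES arrays, relative to the array's 75th percentile; an open circle is not well above background and a star marks the probe used. The starred probes of Gata4, Gata6 and Sox17 show short lines, while other probes of the same genes show lines of 1.66 to 3.32.

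Fibroblast and mesenchymal genes were higher in part too. Of 25 fibroblast markers, 6 were past 2-fold higher, 0 lower, and the median was 0.38, but -0.28 by the spike-in scaling. S100a4, a calcium-binding protein gene of motile cells, went from 1.02 to 3.38 (2.37 ± 0.20), Dcn, the matrix proteoglycan decorin, from 1.37 to 3.33 (1.97), and Col6a1 stood at 1.37, Mmp3 at 1.33 and Loxl1 at 1.099. Fap was 2.83-fold higher by the plain ratio, from a signal not well above background, but its log2 ratio was 0.40 with normexp background correction. Col1a1, the main fibroblast collagen gene, stood at -0.06. The summed linear signal of the list was 51.4 in untreated and 76.2 in treated mES cells, against 79.9 to 157 on the EpiSC arrays, and 24 of the 25 markers were well above background in untreated mES cells. Without the smooth muscle actin gene Acta2, whose ratio was 0.16, the mES sums were 23.4 and 44.9. The median linear signal of the list did not rise with the sums, at 0.73 in untreated and 0.64 in treated mES cells. The part of fibroblast markers in the results above was not tested. Of 21 mesenchymal genes, 5 were higher, 0 lower, with a median of 0.44 (-0.22 by the spike-in scaling); Twist2, a mesodermal transcription factor gene, stood at 1.79 and S100a6 at 1.26.

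Of 23 trophectoderm genes, 4 were past 2-fold higher and 0 lower, with a median of 0.50 (-0.15 by the spike-in scaling). They were Hand1, the reproductive homeobox genes Rhox6 (1.39) and Rhox9 (1.29), and the keratin gene Krt8 (1.04). Krt8 was within 2-fold with normexp background correction (0.96), no scaling (0.93) or the spike-in scaling (0.39). Cdx2, which specifies the lineage, stood at -0.89. Of 26 germline genes, 3 were higher and 0 lower: Rhox6, Rhox9 and Stra8, a gene of meiotic entry, which went from 3.68 to 4.85 (1.16). The imprinted growth factor gene Igf2 was higher (1.73) and Grb10, an imprinted growth inhibitor, lower (-1.15, or within 2-fold as a mean over probes), the only ones past 2-fold of 20 imprinted genes.

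Neural genes did not stand apart in mES cells. Of 35 neuroectoderm genes, 3 were past 2-fold higher, Meis1 (1.58), Zic1 (1.55) and Sox21 (1.16), and 1 lower, Lhx5 (-1.38), and the median was -0.01. With normexp, Meis1 (0.78), Sox21 (0.78) and Lhx5 (-0.66) were within 2-fold. With the spike-in scaling, Meis1 (0.92), Zic1 (0.89) and Sox21 (0.50) were. In the EpiSC pairs the medians of the list were 2.07 and 1.92. Sox1 and Pax6, the early neural plate markers, stood at 0.11 and -0.12, and Pax6 had EpiSC ratios of 3.58 and 2.65. The summed linear signal of 38 neuroectoderm markers was 10.4 in untreated and 9.68 in treated mES cells, against 41.9 and 301 in the E3.5 line. Of 17 neuron and glia genes, 0 were higher and 1, Olig1, lower (at least 2.33-fold, to background).

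Of 19 BMP target genes, 2 were past 2-fold higher, Msx2 (1.09) and the BMP antagonist gene Grem1 (1.08), and 1, Smad7, was lower. Both higher genes were within 2-fold with normexp (0.66 and 0.68), no scaling (0.97 and 0.97) or the spike-in scaling (0.43 and 0.43). Among the Id genes, direct BMP targets, Id1 stood at 0.73, Id3 at 0.27, Id2 at -0.003 and Id4 at -0.14. In the E3.5 EpiSC pair their ratios were 2.46, 1.77, 1.78 and 4.35, in that order. Of 20 general TGF-beta targets, Thbs1 was higher (1.04, with probes from -0.01 to 1.28) and Ndrg1 lower. Of 21 LIF and STAT3 response genes, Mt1, a metallothionein gene, was past 2-fold higher (1.06), though not by quantile, loess, spike-in or no scaling. Of 17 FGF and ERK response genes, Phlda1 alone was (1.21). Of 18 neural crest and surface ectoderm genes, Msx2 and Krt8 were (median 0.22, or -0.45 by the spike-in scaling), and of 25 epithelial genes, Krt8 alone was. For 22 p53 target, 28 cell cycle, 13 DNA methylation, 23 Polycomb and BAF, 28 stress response, and 18 heart, blood and muscle genes, 0 were past 2-fold higher and 0 lower.

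**Figure D5:**
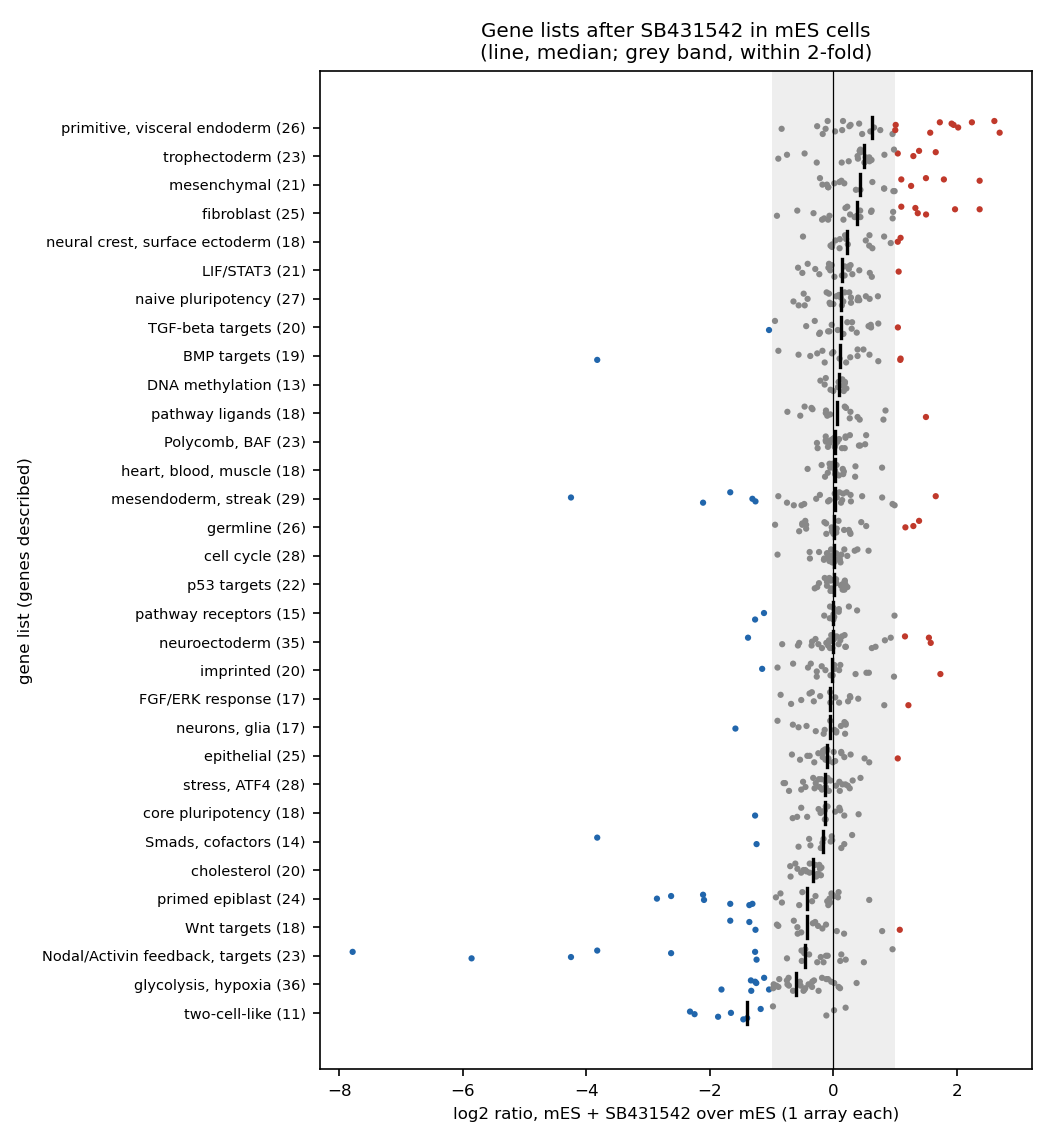
Log2 ratio of the treated over the untreated mES array (1 array each) for the described members of each gene list; points past 2-fold are red (higher) or blue (lower), a bar marks the median and the count of genes stands in parentheses. The two-cell-like list has the lowest median (-1.40) and the endoderm list the highest (0.63).

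Several other genes of the 15 lowest belonged to none of the lists. Ap3b2, a neuronal vesicle coat gene, stood at -2.69, the sulfotransferase gene Gal3st2 at -2.45, Pkdcc, a secreted tyrosine kinase gene, at -2.39 and Ucma, a cartilage matrix gene, at -2.31. In both EpiSC pairs Ucma went to a signal not well above background, and Gal3st2 was not well above background on 3 of the 4 EpiSC arrays. To a signal not well above background, the homeobox gene Irx5 was 7.70-fold and the metalloprotease gene Mmp25 5.30-fold lower by the plain ratio. By the bound, Slitrk4 was at least 4.98-fold and Gbp2b, of the interferon-inducible GTPases, at least 4.89-fold lower. With normexp background correction the log2 ratios were -1.17, -1.01, -0.98 and -0.80, in that order. Irx5 went the other way in EpiSCs, with ratios of 4.03 and 4.06.

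The mES pair held far fewer genes past 2-fold than either EpiSC pair. Of 15697 genes described in the E3.5 pair, 11.7% were higher and 20.2% lower (32% in all), and of 15627 in the E5.5 pair, 6.69% were higher and 9.04% lower (15.7%). The pairs share no array. Of all 17015 named genes, 968 were lower in both EpiSC pairs and 772 were higher in both. Of the 182 genes lower in mES cells, 70 were lower in both EpiSC pairs. That is 38.5% of the mES list and 7.23% of the 968. Of the 227 higher genes, 21 were higher in both, 9.25% of the mES list and 2.72% of the 772. In the opposite direction in both EpiSC pairs were 12 of the higher and 11 of the lower genes. Across 14477 genes above background on all 6 arrays, the mES ratios correlated with those of the E3.5 pair at r = 0.14 and of the E5.5 pair at r = 0.15, while the EpiSC pairs correlated with each other at 0.73. Genes are not independent replicates, so these values only describe the arrays.

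Whether a gene's response differed between mES cells and EpiSCs was tested with limma over all 6 arrays, taking the EpiSC lines as replicates and assuming that the lone mES arrays vary like them. Of 16152 genes, 0 passed at an adjusted p of 0.05 (0% in either direction), with 1110 at an unadjusted p under 0.05, and the smallest adjusted p was 0.286. Pou5f1 differed by 10.45 ± 0.73 on the log2 scale (SE, adjusted p = 0.286), Fgf5 by 7.004 ± 0.85 (adjusted p = 0.286), Nanog by 7.02 ± 0.96 (adjusted p = 0.30), Tdgf1 by 5.55 ± 0.89 (adjusted p = 0.303) and Lefty1 by 2.57 ± 1.01 (adjusted p = 0.740). With 2 residual degrees of freedom the gap between responses of this size did not pass, so no response is called particular to mES cells.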

How the data were processed

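Cy3-labelled RNA of 6 mouse samples was hybridised to one-colour arrays, per the labels. The authors' deposited scanner files hold each spot's intensity on a linear scale, background-subtracted with Feature Extraction (Agilent; 10.7.1.1 in the file headers, 9.1 in the submitters' processing notes). A deposited value table of the series held the same intensity at 45018 of 45018 values on each array. The same program set 0 or 1 flags for background, saturation and outliers and estimated the error of each deposited intensity, per the file headers.

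Spots marked as controls or outliers were dropped, and spots of the same probe were averaged. Values are log2 of the processed intensity minus the array's 75th percentile over non-control spots. Of 41174 probes, 24375 were named by matching transcript accessions to RefSeq (GRCm38.p6), leaving 16799 unnamed. Because the arrays were annotated on another build, only gene order was used from that table. The probe brightest on average over the 6 arrays stands for its gene. Among 89 called genes with several probes, 5 had a probe of the opposite sign, 1 of them past 2-fold.

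Within the mES pair a fixed 2-fold rule was used, without a test. The difference from EpiSCs was an interaction term in limma 3.58.1 (R 4.3.3) over 4 arms with 2 residual degrees of freedom and Benjamini-Hochberg adjustment. The procedure was tested on simulated data. Genes were named as the 15 largest ratios in each direction above background on both arrays, the 5 largest bounds in each direction, every pathway member, a fixed set of markers and up to 4 members of each list past 2-fold; other genes printed, list members among them, were chosen after their values were seen. Some genes that this rule names are not reported here. The members and the 32 lists (639 genes, 604 measured) were chosen with earlier results of these data known. Alternatives were normexp background correction (on median signals, offset 50), other scalings, filters, folds and probe rules, and leaving out each EpiSC array.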

Additional observations from a re-analysis of the deposited data

Results flagged for a closer look

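Bmpr1b, near background in mES cells and given no fold above, had a ratio of -1.12 there and of 4.07 and 3.40 in the E3.5 and E5.5 EpiSC pairs. Leaving it out, the mES pair and both EpiSC pairs were past 2-fold in opposite directions in 3 of the genes named by rule. Pramel39 stood at -2.60 in mES cells and at 3.34 and 1.94 in the E3.5 and E5.5 EpiSC pairs. Irx5 stood at -2.95, with a treated signal not well above background, against 4.03 and 4.06. Krt8, a keratin gene, stood at 1.04, against -3.29 and -1.27. Its mES ratio was within 2-fold with normexp (0.96), no scaling (0.93) and the spike-in scaling (0.39). The limma test of the difference passed for 0 of the 3 (adjusted p = 0.546, 0.286 and 0.531).

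The spike-in control transcripts, which are outside the gene measurements, had a median ratio of 0.66 in the mES pair, with a range from 0.14 to 0.93 over 9 transcripts above background. Their median was -1.16 in the E3.5 and -0.40 in the E5.5 EpiSC pair. The cause was not tested.

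Of 12722 probes with no gene name here that were well above background on the brighter mES array, 113 were past 2-fold higher and 251 lower.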

How the results depend on the processing

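The counts of 227 higher and 182 lower genes moved by over 1.5 times under some choices. They were 100 and 81 with normexp, 522 and 570 at 1.5-fold, 88 and 70 at 3-fold, and 85 and 1425 with the spike-in scaling, which was chosen after seeing the data. With only genes above background on both mES arrays 121 were lower. The other settings (median, quantile, loess and no scaling, no filter, mean over probes, the deposited value table) stayed within 1.5 times. Of 82 named genes past 2-fold, 62 remained past it with normexp, 80 with quantile, 81 with loess, 76 with no scaling, 78 as a mean over probes and 65 with the spike-ins, and 0 changed sign in any. Those within 2-fold with normexp included Tgfb2, Hand1, Meis1, Sox21, Lhx5, Sp5, Olig1, Grpr and Olfr1370. Those within 2-fold with the spike-ins included Tgfb2, Meis1, Sox21, Zic1, Stra8, Rhox6, Rhox9, Phlda1, Col6a1 and S100a6. The median of the two-cell-like list was -0.65 with normexp. The median changed sign in 17 of 32 lists with the spike-ins.

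The test against EpiSCs called 0 genes under every alternative, including the line as a replicate block (0 genes, with 1511 at an unadjusted p under 0.05). Leaving out 1 EpiSC array gave 0 in each case, with 889 to 2556 at an unadjusted p under 0.05. The single pair of arrays allows no replicate to be left out, and genes near background have ratios of uncertain size, at best bounds.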

Other observations

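Values of 6 immune-related genes outside the lists are added here; they were chosen after their values were seen and went both ways in treated mES cells. The chemokine genes Ccl2 and Cxcl1 stood at 2.14 and 2.25, from -0.39 to 1.75 and from -2.94 to -0.70. The interferon-inducible genes Oasl2, Tgtp1 and Irgm1 stood at -1.16, -1.09 and -1.07, and Gbp2b was at least 4.89-fold lower, to background. These interferon-inducible genes were lower in the E3.5 and E5.5 EpiSC pairs too. Their ratios there were -1.92 and -2.01 for Oasl2, -2.07 and -2.69 for Tgtp1, and -2.98 and -2.26 for Irgm1. Gbp2b stood at -6.80 (to background) and -4.14.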
